A study of Mus musculus with 6 samples.

Results

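Imprinted genes are expressed mainly from the allele inherited from a single parent. They lie in clusters, and each cluster is governed by a stretch of DNA that was methylated in the egg or in the sperm and keeps that methylation through early development. The Tet proteins oxidise methylated cytosine, a step on the way to losing the methyl group, and several imprinted genes act on growth of the embryo and placenta. A list of 34 mouse imprinted genes from 16 clusters was followed on microarrays of embryoid bodies, the aggregates that embryonic stem cells form when they differentiate. The genes were chosen by name. Their probes were found by matching the RefSeq accession of each probe to the gene, which gave 57 probes for 32 of the 34 genes. The array carried 20883 named genes in all. No probe was matched to H19 or Rian, and both were not analysed here.

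The study asked how loss of the Tet enzymes affects differentiation. Wild-type (WT) mouse embryonic stem cells and cells lacking all 3 Tet genes (triple knockout, TKO) were grown without LIF for 2 days in hanging drops and for another 8 days in suspension, and total RNA of the resulting day 10 embryoid bodies was labelled and hybridised. All cells were of mixed 129/C57BL6 background. There were 1 WT line and 2 independent TKO lines, TKO_26 and TKO_29, with 2 arrays each and 6 arrays in all. By the design text the arrays within each line are technical replicas, so a p-value below compares lines and not genotypes, and it measures a spread that may be only technical. Both TKO lines were compared with the same WT arrays, so their differences from WT share that error. The arrays measured total RNA from a gene and did not tell the parental alleles apart. In such bulk RNA, fewer cells of a type and less RNA per cell cannot be told apart.

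A level below is the log2 signal of a probe relative to the array's 75th percentile, so that 0 is the level of a fairly bright probe, and a difference is a TKO line minus WT on that scale. Levels are compared between arrays for a given probe, not between probes. A probe was called when limma gave a Benjamini-Hochberg adjusted p below 0.05, taken over all 28269 probes tested, and a difference of at least 2-fold. A gene is said below to have risen or fallen only where a probe was called the same way in both TKO lines.

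The arrays had signal well above background on 38.4 to 55.8% of spots. Between the arrays of a line the SD of the log2 difference over 19193 probes was 0.35 in WT, 0.41 in TKO_26 and 0.36 in TKO_29, against 0.69 between TKO_26 and WT and 0.90 between TKO_29 and WT. All 6 arrays were on 1 slide, with WT and TKO in different columns, so slide position cannot be told apart from genotype. Of the targeted genes, the brightest Tet1 probe fell by 1.02 (adjusted p = 0.0155) and 1.68 (adjusted p = 0.00342) in TKO_26 and TKO_29, and the brightest Tet2 probe by 1.09 (adjusted p = 0.0128) and 1.90 (adjusted p = 0.00261). The other Tet1 probe was at -0.08 and 0.23. The brightest Tet3 probe, above background on all 6 arrays, differed by 1.05 (adjusted p = 0.106) and -0.62 (adjusted p = 0.225) and was not called. Another Tet3 probe gave signal above background in WT only, while none of the 4 TKO arrays did so. It was called lower in TKO_29 (adjusted p = 0.0152) and not in TKO_26 (adjusted p = 0.0805). The third Tet3 probe was called lower in both lines, at -1.26 (adjusted p = 0.0282) and -1.60 (adjusted p = 0.0107). That probe was dim, above background on 1 WT array, on neither TKO_26 array and on both TKO_29 arrays. The labels do not say which part of each gene was altered, so probes elsewhere in the transcript do not check the knockout.

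Cell type markers differed widely between the lines, and these values stand beside every result on the imprinted genes. Of the heart muscle markers 12 of 14 fell, and their summed signal, in units of the array's 75th percentile, was 41.7 to 47.0 on the WT arrays, 3.67 to 3.94 on the TKO_26 arrays and 3.38 to 3.58 on the TKO_29 arrays. Of the blood and endothelium markers 13 of 15 fell, with sums of 10.7 to 11.7, 0.307 to 0.407 and 0.182 to 0.209, and only 3 of the 15 were above background on both TKO_26 arrays. Of the visceral endoderm markers 10 of 13 tested fell (6.74 to 6.94 against 2.13 to 2.22 and 2.04 to 2.09), of the mesenchyme markers 9 of 14 (10.4 to 11.1 against 4.41 to 4.50 and 4.93 to 5.02), and of the trophoblast markers 5 of 10 tested (17.9 to 21.8 against 14.1 to 18.5 and 9.57 to 14.3). Neural markers had 1 of 12 tested lower, with sums of 1.74 to 1.98 in WT, 1.54 to 1.70 in TKO_26 and 1.42 to 1.48 in TKO_29. Of 14 pluripotency markers 4 rose and none fell, with sums of 16.5 to 21.7 in WT, 23.6 to 28.5 in TKO_26 and 15.5 to 20.7 in TKO_29. The trophoblast marker Krt18 and the pluripotency marker Dppa5a were saturated on every array, where a reading is a lower bound. Krt18 read 3.71 and 3.04 in WT, 3.32 and 2.62 in TKO_26 and 1.59 and 2.56 in TKO_29. Differences between lines in the trophoblast and pluripotency sums therefore cannot be read from these values. Neither marker was called, so the counts of called markers do not rest on them. Among named genes on the array, by their brightest probe, 8.03% fell and 3.97% rose. The part of all the cell types above in the differences of the imprinted genes was not tested.

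The imprinted genes were lower in both TKO lines more often than higher, and the pattern differed from cluster to cluster. Of 49 member probes tested, which covered 31 genes, 13 probes of 9 genes fell, a share of 26.5%, where 5.92% of all tested probes were called lower in both lines. These genes were Plagl1, Dlk1, Impact, Nnat, Airn, Igf2r, Mest, Cdkn1c and Peg10. Only Snrpn rose, on all 3 of its probes (6.12% of member probes, against 4.08% of all probes called higher in both lines). In TKO_26 taken by itself 17 member probes were called lower and 3 higher, where the whole array had 7.1% lower and 5.58% higher. In TKO_29 taken by itself 18 were called lower and 3 higher, where the whole array had 10.8% lower and 9.4% higher. Leaving out the array TKO_26 replicate 1, whose repeated spots scattered most (a coefficient of variation of 23.0% against 11.8 to 13.4% on the others), left 14 member probes lower and 1 higher.

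With each line averaged to a single value, the comparison has WT n = 1 and TKO n = 2 and just 1 residual degree of freedom. There limma called 2 member probes lower, both of Plagl1, and 0 higher, against 0.637% and 0.11% of all probes. At an unadjusted p below 0.05 it had 22 of the 49 member probes and 4884 of all 28269. Without TKO_29 replicate 1 the line averages gave 5 member probes lower, and without any other single array they gave 0. Between the TKO lines, TKO_29 against TKO_26, 0 member probes were called in either direction, where 0.0318% of all probes were called higher and 0.396% lower.

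**Figure D1:**
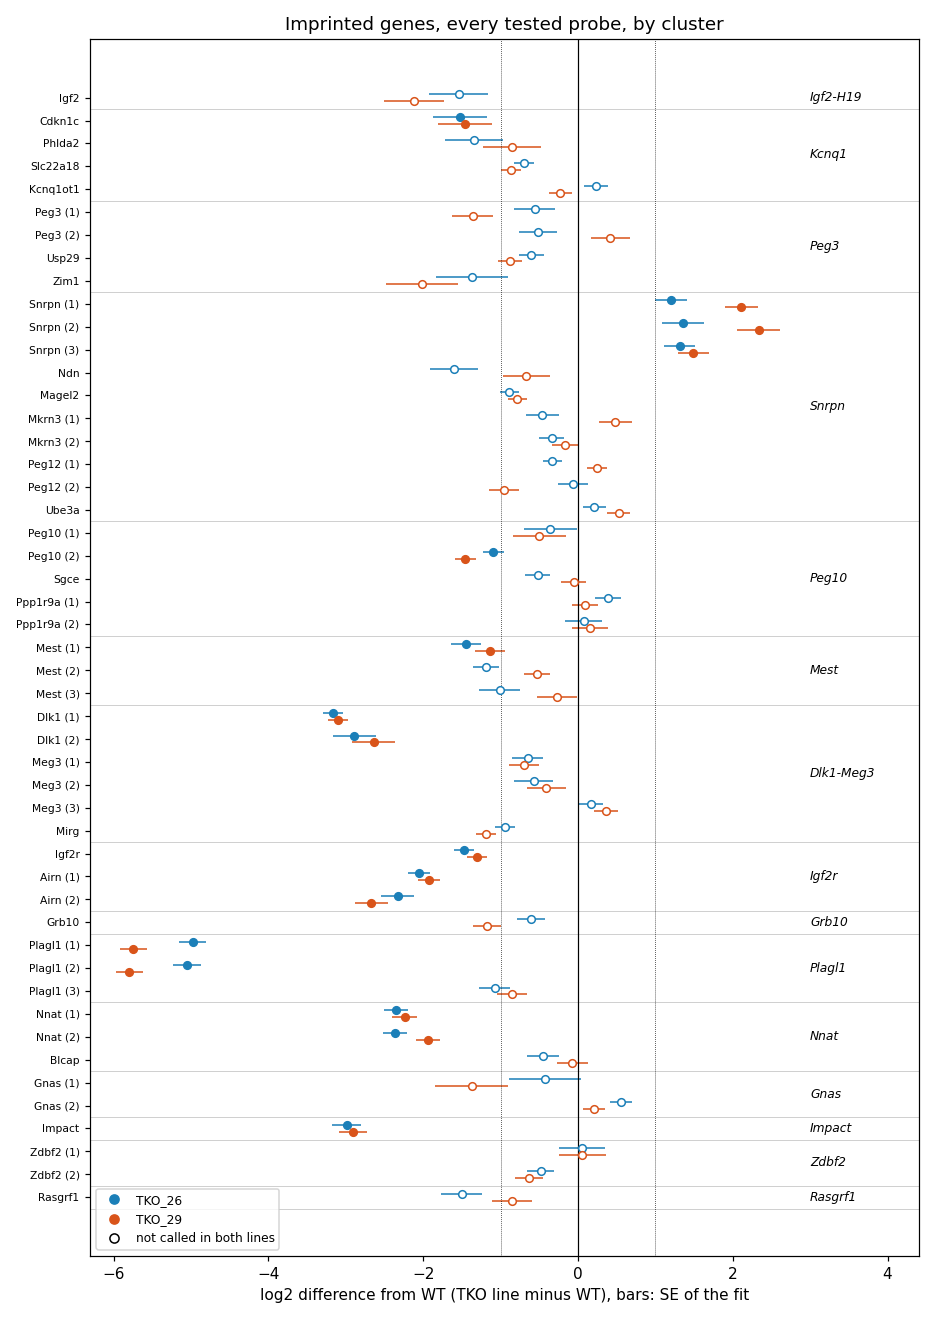
Log2 difference from WT (horizontal axis) of each of the 49 tested probes of 31 imprinted genes, grouped by cluster, in TKO_26 (blue) and TKO_29 (orange). Bars are the SE of the limma fit, filled points are probes called in both lines, and dotted lines mark 2-fold. The filled points on the left run from -1.09 (Peg10) to -5.80 (Plagl1), and the filled points on the right are the 3 Snrpn probes.

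The promoters of some members that fell (Plagl1, Dlk1, Nnat and Mest), and of the member that rose, are shown so that they can be compared with the values that follow. Each is the RefSeq window from 250 bases before to 50 bases after a transcript start on the mouse build GRCm38.p6, 5′ to 3′ on the gene's strand. Where a gene had several starts, the window with the most CG dinucleotides is shown. Capitals mark TGCCGC or its reverse complement GCGGCA, the core letters of the motif that the imprint-protecting protein Zfp57 is known to bind when methylated.
Plagl1 (chr10:13090582-13090881, plus strand): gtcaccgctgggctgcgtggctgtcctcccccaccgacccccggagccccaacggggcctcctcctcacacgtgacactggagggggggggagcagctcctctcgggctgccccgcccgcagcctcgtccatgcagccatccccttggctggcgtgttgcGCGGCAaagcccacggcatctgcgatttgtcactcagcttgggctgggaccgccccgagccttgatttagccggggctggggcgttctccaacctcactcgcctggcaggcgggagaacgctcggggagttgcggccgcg
Dlk1 (chr12:109452573-109452872, plus strand): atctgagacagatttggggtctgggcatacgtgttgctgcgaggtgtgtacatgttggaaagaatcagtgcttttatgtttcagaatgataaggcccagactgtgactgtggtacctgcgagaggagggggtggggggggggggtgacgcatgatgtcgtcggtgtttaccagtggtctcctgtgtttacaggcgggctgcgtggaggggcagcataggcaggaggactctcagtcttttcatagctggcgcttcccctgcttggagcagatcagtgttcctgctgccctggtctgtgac
Nnat (chr2:157559828-157560127, plus strand): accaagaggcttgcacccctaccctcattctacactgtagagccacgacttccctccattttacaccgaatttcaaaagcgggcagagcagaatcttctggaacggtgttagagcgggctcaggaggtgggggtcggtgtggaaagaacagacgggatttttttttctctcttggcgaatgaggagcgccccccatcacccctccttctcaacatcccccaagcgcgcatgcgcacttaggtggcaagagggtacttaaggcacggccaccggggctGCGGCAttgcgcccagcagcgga
Mest (chr6:30737800-30738099, plus strand): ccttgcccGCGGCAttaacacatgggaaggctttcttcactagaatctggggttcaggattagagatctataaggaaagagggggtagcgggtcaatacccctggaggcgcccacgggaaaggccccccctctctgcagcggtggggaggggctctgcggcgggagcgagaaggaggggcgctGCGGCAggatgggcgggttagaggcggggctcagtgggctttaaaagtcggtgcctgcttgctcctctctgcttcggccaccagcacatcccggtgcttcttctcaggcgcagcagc
Snrpn (chr7:60005150-60005449, minus strand): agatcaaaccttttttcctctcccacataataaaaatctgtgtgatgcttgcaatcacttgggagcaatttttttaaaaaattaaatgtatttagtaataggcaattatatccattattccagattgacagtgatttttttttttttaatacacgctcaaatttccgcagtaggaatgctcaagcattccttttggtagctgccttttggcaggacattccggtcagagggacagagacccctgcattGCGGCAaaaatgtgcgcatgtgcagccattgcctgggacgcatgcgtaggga

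Searched on both strands, the hexamer was present in the windows shown for Plagl1, Nnat, Mest and Snrpn, with 2 matches in Mest and 1 in each of the others. Dlk1, whose cluster is governed by a sperm-derived mark that lies away from the gene, had no match in its window. Airn and Igf2r, which also fell and are not shown, had no match either, with 3 and 34 CG dinucleotides. Over all RefSeq windows of the same length the hexamer was in 11.6% of 32851, or 13.1% of 27025 genes. It was in windows of 10 of the 29 members counted. Impact, which also fell, was left out of the member windows, and H19, Cdkn1c, Peg10 and Sgce had no window. The Plagl1 window held 26 CG dinucleotides, the Nnat and Mest windows 17 each, the Dlk1 window 9 and the Snrpn window 7, where the median was 14.5 over 44 member windows and 7 over all windows. Windows of genes that fell lay on both sides of the members' median in CG content. A match is a run of letters and not a measured site, and the arrays carry no methylation values.

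Plagl1, a zinc finger transcription factor that restrains proliferation and is expressed from the paternal allele, had the largest difference of all members. Its brightest probe read 2.34 and 2.18 on the WT arrays, -2.55 and -2.90 on the TKO_26 arrays and -3.54 and -3.43 on the TKO_29 arrays. WT was above every TKO array by more than 4 log2 units, a gap many times the spread within any line. Plagl1 fell by 4.98 ± 0.17 (SE) in TKO_26, a 31.5-fold drop (limma adjusted p = 0.000636), and fell by 5.74 ± 0.17 in TKO_29, a 53.6-fold drop (adjusted p = 0.000494). The other bright probe read 2.13 and 1.92 in WT, -2.90 and -3.16 in TKO_26 and -3.90 and -3.64 in TKO_29, with differences of -5.05 ± 0.18 and -5.80 ± 0.18. On line averages both probes were called, at an adjusted p of 0.0490 and 0.0480, just inside the threshold, and both calls were lost without any single array other than TKO_29 replicate 1.

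The remaining Plagl1 probes were dim and showed less. The third, at -7.25 and -7.06 in WT, was above background on 1 WT array, on neither TKO_26 array and on both TKO_29 arrays, and differed by -1.07 and -0.85. Its call in TKO_26 (adjusted p = 0.0238) was lost without WT replicate 1 or 2, TKO_26 replicate 1 or 2, or TKO_29 replicate 2 (-1.17 to -0.98, adjusted p from 0.0520 to 0.0929). The fourth Plagl1 probe was not tested. Of the nearest coding genes on either side of Plagl1 that are not known to be imprinted, up to 5 a side, the 8 tested ones were not called, and their line-average differences ran from 0.01 (Sf3b5) to 0.60 (Pex3). These neighbours were picked after the member values had been seen.

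Dlk1, a transmembrane protein of the Notch ligand family that holds back differentiation, is paternally expressed and shares its cluster with the maternally expressed noncoding RNAs Meg3, Rian and Mirg. The brighter Dlk1 probe read 2.59 on both WT arrays, -0.54 and -0.60 in TKO_26 and -0.60 and -0.42 in TKO_29. The TKO lines overlapped each other and lay about 3 log2 units below WT. Dlk1 fell by 3.17 ± 0.13 in TKO_26 (8.98-fold, adjusted p = 0.00083) and fell by 3.10 ± 0.13 in TKO_29 (8.58-fold, adjusted p = 0.000727). The dimmer probe fell by 2.89 ± 0.28 (adjusted p = 0.00438) and 2.64 ± 0.28 (adjusted p = 0.00427), and its call in TKO_29 was lost without TKO_29 replicate 2 (-2.74, adjusted p = 0.0508).

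The maternally expressed RNAs of the Dlk1 cluster differed less. Meg3, a long noncoding RNA, read 2.37 and 2.33 in WT, 1.83 and 1.57 in TKO_26 and 1.44 and 1.87 in TKO_29 on its brightest probe, which was saturated on 1 TKO_29 array. All 4 TKO arrays read below WT, though the saturated reading is a lower bound. The differences of -0.65 (adjusted p = 0.0809) and -0.69 (adjusted p = 0.0501) were not called. Its other probes disagreed in direction: the next brightest read -2.08 and -1.48 in WT, -2.19 and -2.51 in TKO_26 and -2.29 and -2.10 in TKO_29, and the dimmest read -6.19 and -5.99, -5.82 and -6.04, and -5.81 and -5.65. Neither was called. Mirg, a microRNA host transcript, read 0.82 and 0.79 in WT, -0.07 and -0.21 in TKO_26 and -0.31 and -0.45 in TKO_29, with no overlap between the lines.

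Mirg differed by -0.94 ± 0.13 in TKO_26 (adjusted p = 0.0116), which is under 2-fold, and by -1.19 ± 0.13 in TKO_29 (adjusted p = 0.00482), which was called. The TKO_29 call was lost without TKO_29 replicate 2 (-1.12, adjusted p = 0.0571), and a TKO_26 call appeared without TKO_26 replicate 1 (-1.01, adjusted p = 0.0403). None of the 10 tested coding neighbours of the cluster was called in both lines. Their line averages ran from -1.15 (1700001K19Rik, called lower in TKO_29 at an adjusted p of 0.0473) to 0.21 (Dync1h1).

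**Figure D2:**
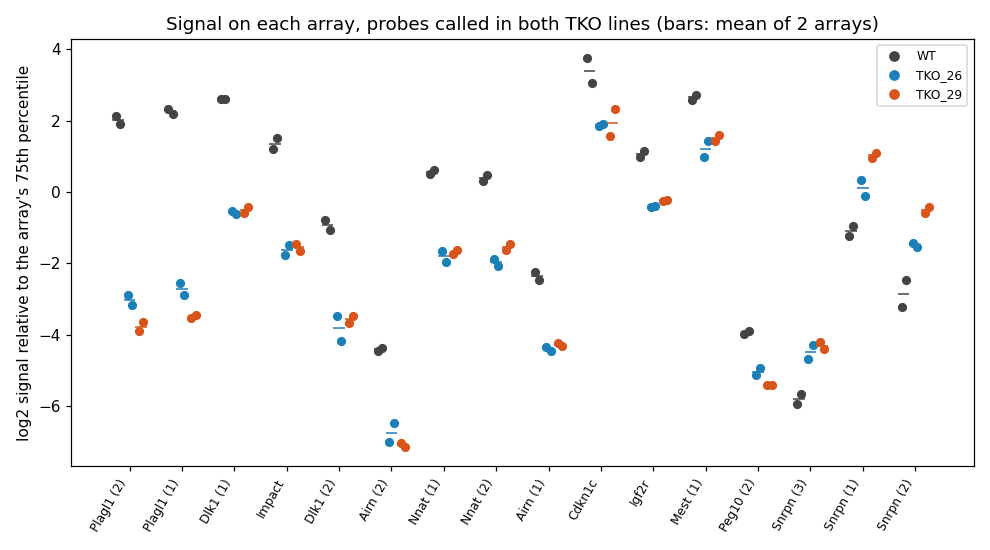
Log2 signal relative to the array's 75th percentile (vertical axis) on each of the 2 arrays of WT (grey), TKO_26 (blue) and TKO_29 (orange), for the 16 member probes called in both TKO lines. Horizontal bars are the mean of the 2 arrays. WT lies above all 4 TKO arrays for the 13 probes on the left, as for Plagl1 at 2.34 and 2.18, and below them for the 3 Snrpn probes on the right. Saturated readings, in Cdkn1c and Mest, are lower bounds.

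Impact, a regulator of the kinase that senses amino acid shortage, is paternally expressed. It read 1.21 and 1.51 in WT, -1.76 and -1.50 in TKO_26 and -1.45 and -1.65 in TKO_29. The TKO lines overlapped each other and were well below WT. Impact fell by 2.99 ± 0.18 in TKO_26 (7.94-fold, adjusted p = 0.00152) and by 2.91 ± 0.18 in TKO_29 (7.49-fold, adjusted p = 0.00152). The other Impact probe was below background on all 6 arrays and was not tested.

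Nnat, a small membrane protein of the endoplasmic reticulum best known from neurons, lies within an intron of Blcap, and its paternal allele is the expressed copy. The brighter Nnat probe read 0.50 and 0.61 in WT, -1.65 and -1.95 in TKO_26 and -1.75 and -1.63 in TKO_29. The other read 0.31 and 0.48, -1.87 and -2.07, and -1.63 and -1.45. On both probes every TKO array was below WT. The brighter probe fell by 2.35 ± 0.16 (5.11-fold, adjusted p = 0.00186) and 2.24 ± 0.16 (4.73-fold, adjusted p = 0.00181), and the other by 2.37 ± 0.15 (adjusted p = 0.00174) and 1.93 ± 0.15 (adjusted p = 0.00234). Blcap, whose imprinting depends on isoform and tissue, read -2.27 and -2.24 in WT, -2.63 and -2.78 in TKO_26 and -2.58 and -2.08 in TKO_29. It overlapped WT in TKO_29 and was not called (-0.45, adjusted p = 0.185, and -0.07, adjusted p = 0.798). Among the 8 tested neighbours of Nnat and Blcap, 2 fell, the lowest being Ghrh, the growth hormone releasing hormone gene, at -6.71 on line averages, with signal above background on 2 of the 4 TKO arrays.

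The Igf2r cluster fell as a whole, with all 3 of its probes called in both lines. Igf2r, the receptor that takes up and clears IGF2, is expressed from the maternal allele in most mouse tissues, and Airn, the noncoding RNA transcribed across it from the opposite strand, from the paternal allele. Igf2r read 0.99 and 1.15 in WT, -0.42 and -0.39 in TKO_26 and -0.25 and -0.21 in TKO_29. Its 4 TKO arrays lay close together and all below WT. Igf2r fell by 1.47 ± 0.13 (2.77-fold, adjusted p = 0.00338) and 1.30 ± 0.13 (2.46-fold, adjusted p = 0.00366), and the call in TKO_29 was lost without TKO_29 replicate 2 (-1.32, adjusted p = 0.0507).

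Airn fell alongside Igf2r although the paired transcripts come from opposite alleles. The brighter Airn probe read -2.24 and -2.47 in WT, -4.36 and -4.45 in TKO_26 and -4.24 and -4.32 in TKO_29, and fell by 2.05 ± 0.14 (4.14-fold, adjusted p = 0.00196) and 1.93 ± 0.14 (3.81-fold, adjusted p = 0.00201). The other read -4.46 and -4.36 in WT, -7.01 and -6.47 in TKO_26 and -7.04 and -7.13 in TKO_29. It fell by 2.33 ± 0.21 (adjusted p = 0.00393) and 2.67 ± 0.21 (adjusted p = 0.00238), with 1 TKO_26 array not above background. WT was above all TKO arrays on both probes. Among the 9 tested neighbours of this cluster only Plg, the plasminogen gene, fell in both lines, and it was not above background on any of the 4 TKO arrays.

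**Figure D3:**
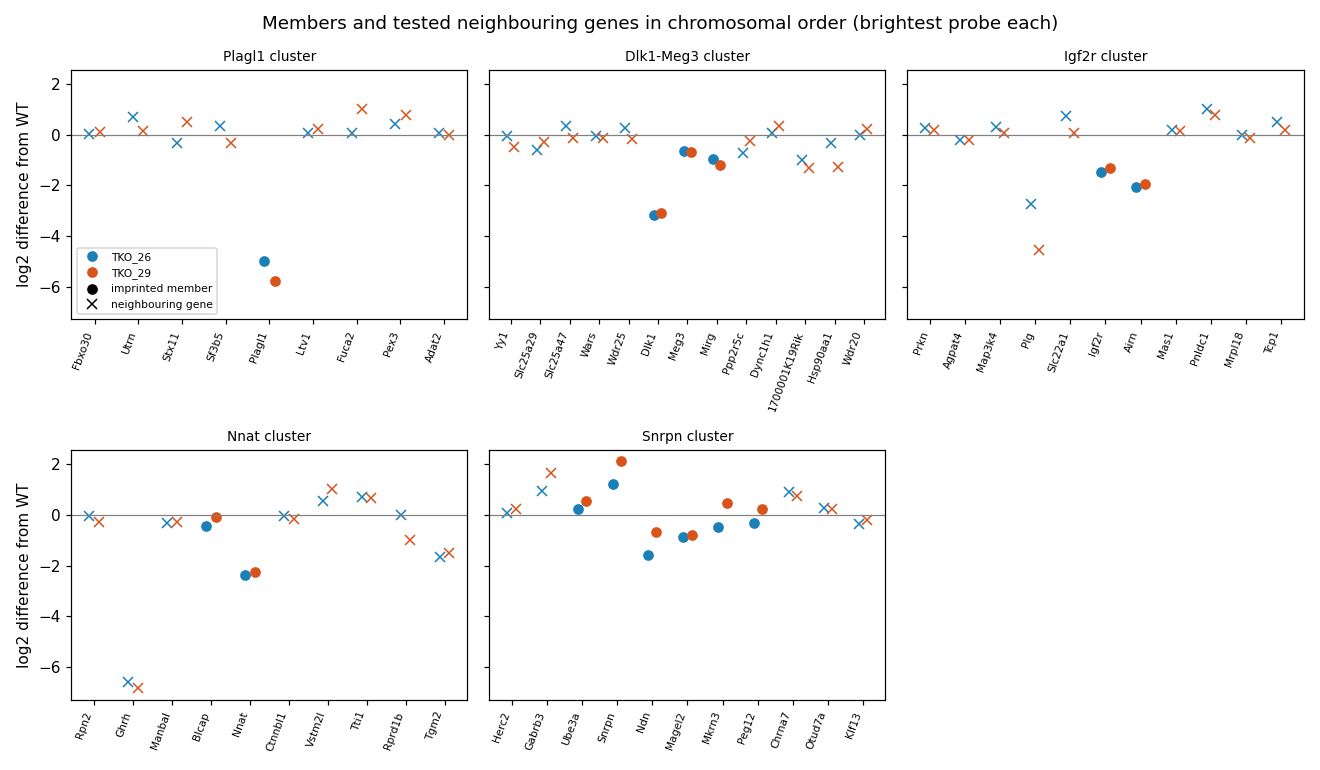
Log2 difference from WT (vertical axis) of the brightest tested probe of imprinted members (circles) and of neighbouring genes outside the lists of imprinted genes used here (crosses), in chromosomal order for 5 clusters, in TKO_26 (blue) and TKO_29 (orange). Plagl1 at -4.98 and -5.74 stands among 8 neighbours whose line averages lie between 0.01 and 0.60, while Nnat and Igf2r each have a neighbour (Ghrh and Plg) that lies lower than they do, on a probe not above background on at least 2 of the 4 TKO arrays.

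Mest, an enzyme of the alpha/beta hydrolase family expressed in embryonic mesoderm from the paternal allele, fell on its brightest probe. That probe read 2.58 and 2.72 in WT, 0.98 and 1.43 in TKO_26 and 1.43 and 1.58 in TKO_29, with 1 TKO_29 array saturated. WT read above all TKO arrays. A saturated reading is a lower bound, so the place of that TKO_29 array below WT was not measured. The other TKO_29 array, at 1.58, was not saturated. Over all alternative settings and left-out arrays the TKO_29 difference ran from -1.22 to -0.42. Mest fell by 1.45 ± 0.19 (2.73-fold, adjusted p = 0.0104) and 1.14 ± 0.19 (2.21-fold, adjusted p = 0.0134). The call rested on several arrays: without WT replicate 1 or 2, or TKO_29 replicate 1 or 2, the adjusted p in TKO_29 was 0.0551 to 0.0889 at differences of -1.22 to -1.07.

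The other Mest probes, which match another RefSeq transcript of the gene, differed mainly in TKO_26. The brighter of them read 0.81 and 0.90 in WT, -0.23 and -0.44 in TKO_26 and 0.17 and 0.48 in TKO_29, which is -1.19 ± 0.17 (adjusted p = 0.0118) and -0.53 ± 0.17 (adjusted p = 0.0647). Its TKO_26 call was lost without WT replicate 1 (-1.23, adjusted p = 0.0693) or WT replicate 2 (-1.15, adjusted p = 0.0570). The dimmest Mest probe was not called, at -1.01 (adjusted p = 0.0556) and -0.27 (adjusted p = 0.444).

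Cdkn1c, the cyclin-dependent kinase inhibitor p57, is the maternally expressed growth inhibitor of the Kcnq1 cluster. It read 3.75 and 3.05 in WT, 1.84 and 1.90 in TKO_26 and 1.56 and 2.32 in TKO_29, and was saturated on 1 WT and 1 TKO_29 array. Every TKO array read below WT, but the WT arrays differed from each other by about as much as those of TKO_29. Saturated readings are lower bounds, so the place of that TKO_29 array below WT was not measured. Over all alternative settings and left-out arrays the TKO_29 difference ran from -1.84 to -0.29. Cdkn1c fell by 1.53 ± 0.35 (2.88-fold, adjusted p = 0.0414) and 1.46 ± 0.35 (2.75-fold, adjusted p = 0.0322). This was the least stable of the calls in both lines, since leaving out any single array of the 6 ended it, with line-average differences from -1.84 to -1.15.

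The other genes of the Kcnq1 cluster were not called. Phlda2, a maternally expressed restraint on placental growth, read -1.89 and -2.38 in WT, -3.93 and -3.01 in TKO_26 and -3.19 and -2.78 in TKO_29, all TKO arrays below WT, at -1.34 (adjusted p = 0.0674) and -0.85 (adjusted p = 0.132). A TKO_26 call appeared without TKO_26 replicate 2 (-1.80, adjusted p = 0.0328). Slc22a18, a maternally expressed membrane transporter, read -2.00 and -2.14 in WT, -2.73 and -2.81 in TKO_26 and -2.87 and -3.01 in TKO_29. Its lines did not overlap and its adjusted p was 0.0263 and 0.0105, but the differences of -0.70 and -0.87 were under 2-fold. Kcnq1ot1, the paternally expressed noncoding RNA that silences the cluster, read -5.53 and -5.28 in WT, -5.20 and -5.14 in TKO_26 and -5.54 and -5.72 in TKO_29, on either side of WT, and was not called (0.24, adjusted p = 0.326, and -0.23, adjusted p = 0.281). Its other probe was below background on all arrays.

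Peg10, a paternally expressed gene derived from a retrotransposon and needed in the placenta, had probes that disagreed. The probe that fell read -3.99 and -3.91 in WT, -5.14 and -4.94 in TKO_26 and -5.42 and -5.39 in TKO_29, with no overlap between any lines. Peg10 fell there by 1.09 ± 0.13 (2.13-fold, adjusted p = 0.00831) and 1.46 ± 0.13 (2.75-fold, adjusted p = 0.00323), and the TKO_26 call was lost without WT replicate 1 (-1.14, adjusted p = 0.0544) or TKO_26 replicate 1 (-0.99, under 2-fold). The other probe, brighter on average over the arrays, read -4.11 and -4.45 in WT, -4.42 and -4.86 in TKO_26 and -5.20 and -4.36 in TKO_29. It overlapped WT and was not called (-0.36, adjusted p = 0.511, and -0.50, adjusted p = 0.293).

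The other members of the Peg10 cluster, Sgce and Ppp1r9a, were not called. Sgce, the epsilon-sarcoglycan that is paternally expressed, read -1.09 and -0.83 in WT, -1.54 and -1.41 in TKO_26 and -0.91 and -1.12 in TKO_29, at -0.52 (adjusted p = 0.0856) and -0.06 (adjusted p = 0.804). Ppp1r9a, an actin-binding protein with maternal expression in some tissues, read -1.08 and -1.20, -0.71 and -0.78, and -0.88 and -1.23, at 0.39 (adjusted p = 0.165) and 0.09 (adjusted p = 0.707). Both overlapped WT in TKO_29.

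Snrpn was the only member that rose. It encodes a spliceosome protein, is paternally expressed, and its first exons carry the imprinting centre of a cluster that also holds Ndn, Magel2, Mkrn3, Peg12 and the maternally expressed Ube3a. The brightest Snrpn probe read -1.22 and -0.95 in WT, 0.34 and -0.11 in TKO_26 and 0.94 and 1.10 in TKO_29, so that the lines did not overlap. It rose by 1.20 ± 0.21 (2.30-fold, adjusted p = 0.0210) and 2.11 ± 0.21 (4.32-fold, adjusted p = 0.00381). The next read -3.22 and -2.47, -1.44 and -1.54, and -0.59 and -0.43, and rose by 1.36 ± 0.27 (adjusted p = 0.0299) and 2.33 ± 0.27 (adjusted p = 0.00544).

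The dimmest Snrpn probe read -5.93 and -5.67 in WT, -4.68 and -4.30 in TKO_26 and -4.21 and -4.41 in TKO_29, and rose by 1.31 ± 0.20 (adjusted p = 0.0141) and 1.49 ± 0.20 (adjusted p = 0.00730). All 3 probes were higher on every TKO array than on either WT array. The brightest probe was 0.91 higher in TKO_29 than in TKO_26, which was not called (adjusted p = 0.111). The calls were less firm than the direction. Without WT replicate 1, TKO_29 replicate 1 or TKO_29 replicate 2, none of the 3 probes was called in both lines, and without TKO_26 replicate 1 only the dimmest was. Without WT replicate 2 the call of the brightest ended, and without TKO_26 replicate 2 that of the middle one. Line-average differences over these left-out arrays stayed between 1.27 and 2.22.

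Elsewhere in the Snrpn cluster no other member of the list was called in both lines. Ndn, a neuronal growth suppressor of the MAGE family, read -3.48 and -2.63 in WT, -4.72 and -4.58 in TKO_26 and -3.84 and -3.60 in TKO_29, all TKO arrays below WT. Its difference of -1.60 ± 0.31 in TKO_26 was called (adjusted p = 0.0264) and that of -0.67 in TKO_29 was not (adjusted p = 0.144). The TKO_26 call was lost without either TKO_26 array or either TKO_29 array (adjusted p from 0.0654 to 0.105), and a TKO_29 call appeared without WT replicate 1 (-1.09, adjusted p = 0.0465). Magel2, a related MAGE protein, read -2.52 and -2.63 in WT, -3.43 and -3.50 in TKO_26 and -3.36 and -3.37 in TKO_29. Its adjusted p was 0.0111 and 0.0107 at differences of -0.89 and -0.79, both under 2-fold.

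Mkrn3, a ring finger protein, and Peg12, both paternally expressed, were below WT in TKO_26 and above it in TKO_29 on their brighter probes. The brighter Mkrn3 probe read -4.28 and -3.81 in WT, -4.67 and -4.35 in TKO_26 and -3.54 and -3.59 in TKO_29, and the other -4.49 and -4.54, -5.02 and -4.69, and -4.76 and -4.60. The brighter Peg12 probe read -2.24 and -2.09 in WT, -2.51 and -2.49 in TKO_26 and -1.95 and -1.90 in TKO_29, and the dimmer -6.40 and -6.58, -6.42 and -6.69, and -7.62 and -7.26. None of these was called, with differences from -0.95 to 0.48. Ube3a, a ubiquitin ligase expressed mainly from the maternal allele in neurons, read -3.09 and -2.86 in WT, -2.84 and -2.68 in TKO_26 and -2.38 and -2.50 in TKO_29, at 0.21 (adjusted p = 0.378) and 0.53 (adjusted p = 0.0517). The 5 tested coding neighbours of the cluster were not called.

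Igf2, the fetal growth factor expressed from the paternal allele, read -0.11 and -0.71 in WT, -1.48 and -2.42 in TKO_26 and -2.68 and -2.37 in TKO_29. All TKO arrays were below WT. Its difference was -1.54 ± 0.39 in TKO_26 (2.91-fold, adjusted p = 0.0512), which missed the threshold, and -2.11 ± 0.39 in TKO_29 (4.33-fold, adjusted p = 0.0160), which was called. The TKO_29 call was lost without WT replicate 1, TKO_29 replicate 1 or TKO_29 replicate 2 (adjusted p from 0.0797 to 0.10), and a TKO_26 call appeared without TKO_26 replicate 1 (-2.01, adjusted p = 0.0439). The TKO lines did not differ from each other past the threshold (-0.57, adjusted p = 0.395). Its partner H19 was not analysed here.

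In the Peg3 cluster 2 probes were called, both in TKO_29 alone. Peg3, a paternally expressed zinc finger protein known for its role in maternal behaviour, read -0.36 and -0.64 in WT, -0.71 and -1.39 in TKO_26 and -1.89 and -1.82 in TKO_29 on its brighter probe. That is -0.56 (adjusted p = 0.202) and -1.36 ± 0.26 (adjusted p = 0.0185), the TKO_29 call being lost without WT replicate 1 or either TKO_29 array (adjusted p from 0.0915 to 0.105). The dimmer Peg3 probe read -5.15 and -4.94, -5.43 and -5.70, and -4.93 and -4.32, and was on either side of WT. Whether Peg3 differed between TKO_26 and TKO_29 was tested and not called (-0.80, adjusted p = 0.177).

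Zim1, a maternally expressed zinc finger gene next to Peg3, read -5.80 and -5.88 in WT, -6.55 and -7.88 in TKO_26 and -7.61 and -8.10 in TKO_29. It was not above background on either TKO_26 array, which makes it at least 2.59-fold lower there (adjusted p = 0.104), and it differed by -2.01 ± 0.47 in TKO_29 (adjusted p = 0.0293). The TKO_29 call was lost without either WT or either TKO_29 array (adjusted p from 0.0938 to 0.147), and a TKO_26 call appeared without TKO_26 replicate 1 (-2.03, adjusted p = 0.0271). The other Zim1 probe was not tested. Usp29, a paternally expressed ubiquitin protease gene, read -5.36 and -5.10, -5.82 and -5.83, and -5.99 and -6.22, with TKO below WT at -0.60 (adjusted p = 0.0586) and -0.88 (adjusted p = 0.0157), under 2-fold. It passed 2-fold in TKO_29 without WT replicate 1 (-1.01, adjusted p = 0.0465).

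Among the members that stand alone, Grb10, an adaptor protein that dampens insulin and IGF signalling and is maternally expressed outside the brain, read -1.27 and -1.46 in WT, -1.77 and -2.16 in TKO_26 and -2.56 and -2.53 in TKO_29. The lines did not overlap. It differed by -0.60 (adjusted p = 0.0781) and -1.18 ± 0.18 (adjusted p = 0.0103), the latter call being lost without WT replicate 1 or either TKO_29 array (adjusted p from 0.0596 to 0.0806). Rasgrf1, a Ras exchange factor with a sperm-derived mark, read -7.02 and -6.91 in WT, -8.28 and -8.66 in TKO_26 and -8.13 and -7.51 in TKO_29, near background on most arrays. It was called in TKO_26 (-1.50, adjusted p = 0.0206) and not in TKO_29 (-0.85, adjusted p = 0.0603), and the call was lost without either WT or either TKO_26 array (adjusted p from 0.0560 to 0.10).

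Gnas, a complex locus for the stimulatory G protein alpha subunit with transcripts of different parental origin, read 3.80 and 3.03 in WT, 3.32 and 2.65 in TKO_26 and 1.54 and 2.53 in TKO_29 on its brightest probe. That probe was saturated on all arrays except TKO_26 replicate 1, so its differences of -0.42 and -1.37 bound little. A dim probe for another Gnas transcript read -6.48 and -6.26, -5.88 and -5.75, and -6.16 and -6.16, all TKO arrays above WT, and was not called (0.56, adjusted p = 0.0530, and 0.21, adjusted p = 0.289). The third Gnas probe was below background on all arrays. Zdbf2, a paternally expressed zinc finger gene, read -5.23 and -4.54, -4.58 and -5.09, and -4.73 and -4.93 on its brighter probe, overlapping throughout. The dimmer Zdbf2 probe read -6.29 and -6.17, -6.56 and -6.87, and -7.00 and -6.72, with TKO below WT, and was not called (-0.48, adjusted p = 0.127, and -0.63, adjusted p = 0.0504). Nap1l5 had signal above background on at most 1 array per probe, and neither of its probes was tested.

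Grouped by the allele known to be expressed, both parental classes were shifted downward. Of the paternally expressed genes 19 of 20 had a tested probe. Of their 33 tested probes 11, from 7 genes, fell and 3, all of Snrpn, rose. Of the 12 maternally expressed genes 10 were tested, and 2 of 13 probes, from 2 genes, fell and none rose. Over all tested probes 5.92% fell and 4.08% rose. By the brightest probe, 6 of the 19 paternally expressed genes and 2 of the 10 maternally expressed genes fell, where 8.03% of named genes did. On the brightest probe of each gene the median difference was -0.89 in TKO_26 and -0.85 in TKO_29 for paternally expressed genes, and -0.82 and -1.02 for maternally expressed genes. Over all tested probes the median was 0.04 and -0.03. The probes that fell by more than 2 log2 units in both lines belonged to Plagl1, Dlk1, Impact, Nnat and Airn, all paternally expressed. Whether the parental classes differ was not tested.

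**Figure D4:**
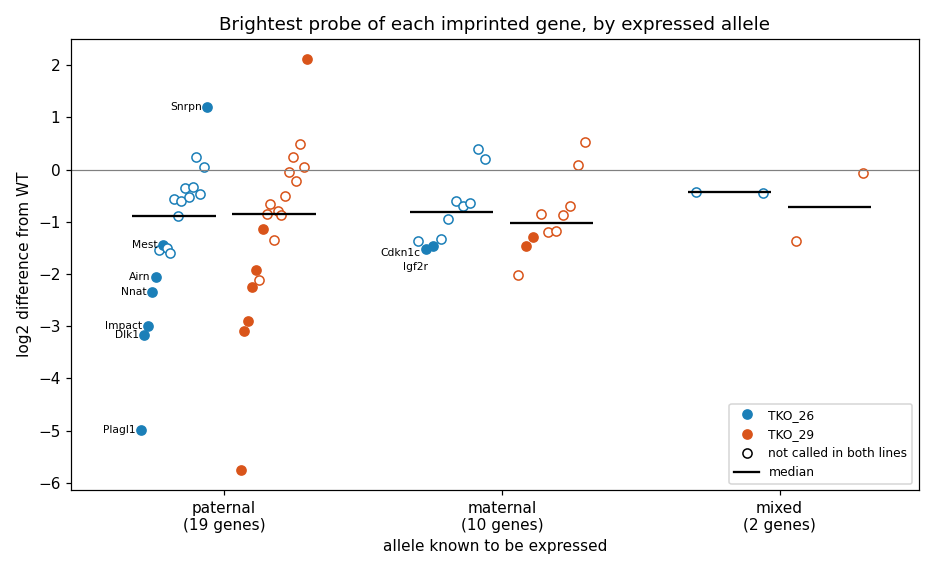
Log2 difference from WT (vertical axis) of the brightest tested probe of each of 31 imprinted genes, by the allele known to be expressed, in TKO_26 (blue) and TKO_29 (orange). Filled points are probes called in both lines and black lines are medians. Medians are -0.89 and -0.85 for 19 paternally expressed genes and -0.82 and -1.02 for 10 maternally expressed genes, while Plagl1, at -4.98 and -5.74, and Snrpn, at 1.20 and 2.11, mark the ends of the paternal class.

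Grouped by the origin of the methylation mark, clusters with an egg-derived mark had 11 of 39 tested probes lower (28.2%) and 3 higher (7.69%). The lower probes came from 8 of 25 tested genes. Clusters with a sperm-derived mark had 2 of 8 lower (25.0%), both of Dlk1, and none higher. Noncoding RNAs had 2 of 7 tested probes lower (28.6%), both of Airn. The shares over all tested probes were 5.92% lower and 4.08% higher. Over all 31 genes the brightest probe was below WT in both lines for 24 and above it in both for 4. Its median difference was -0.70 in TKO_26 and -0.87 in TKO_29, against -0.01 and -0.04 over the brightest probes of 14575 named genes. By that probe 8 genes fell and 1 rose, where 8.03% of named genes fell and 3.97% rose.

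Neighbouring genes outside the lists of imprinted genes used here gave another reference. Those lists may not be complete, so some neighbours may be imprinted. Of 106 tested neighbours of the 16 clusters, 14 fell and 3 rose, a share of 13.2% lower, and their median line-average difference was 0.01, against -0.90 for the 31 members. The neighbour with the highest value was Aurkc, a kinase of meiotic cells beside Peg3, at 3.36 on line averages.

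Imprinted genes outside the 34 were called in either direction. Of 37 tested in the further list of 47, 7 fell and 2 rose, where 8.03% of named genes fell and 3.97% rose. Their median was -0.33 in TKO_26 and -0.43 in TKO_29. Peg13, a noncoding RNA, fell by 4.78 (adjusted p = 0.000568) and 4.50 (adjusted p = 0.000585), Slc38a4, an amino acid transporter with paternal expression, by 3.68 (adjusted p = 0.000849) and 4.28 (adjusted p = 0.000686), and Asb4, a substrate adaptor of a ubiquitin ligase, fell by 3.30 (adjusted p = 0.00369) and 3.51 (adjusted p = 0.00268). Dio3 fell by 1.69 (adjusted p = 0.00315) and 1.98 (adjusted p = 0.00188), Kcnq1 by 2.00 and 1.73, and Phactr2 by 1.35 and 1.18. Peg13, Dio3 and Kcnq1 were each not above background on 1 TKO_26 array. Klf14, a transcription factor in the Mest region, was not above background on either TKO_26 array or on 1 TKO_29 array, and was at least 4.74-fold lower in TKO_26 (adjusted p = 0.00551) and 5.43-fold lower in TKO_29 (adjusted p = 0.00523), where 1 array measured it. The genes that rose were Cobl, at 1.99 and 1.52, and Atp10a, at 1.68 and 1.95.

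Of 20 tested genes of the machinery that protects imprints, none fell and 1 rose, where 8.03% of named genes fell and 3.97% rose. Dppa3, the oocyte factor that shields maternal methylation in the zygote, rose by 2.59 (adjusted p = 0.00151) and 2.14 (adjusted p = 0.00193). Zfp57, the zinc finger protein that recognises methylated imprints, differed by 0.38 (adjusted p = 0.404) and 0.09 (adjusted p = 0.820). Its partner Trim28 differed by 0.35 (adjusted p = 0.548) and -0.14 (adjusted p = 0.781), and was saturated on both TKO_29 arrays, where a reading is a lower bound. The maintenance methyltransferase Dnmt1 differed by -0.05 (adjusted p = 0.915) and 0.10 (adjusted p = 0.803). Hells, at 0.70 (adjusted p = 0.0392) and 1.45 (adjusted p = 0.0046), was called higher in TKO_29 alone. Dnmt3a differed by -0.805 (adjusted p = 0.0188) and -0.98 (adjusted p = 0.008), both under 2-fold. Of 19 tested genes of the growth factor axis on which Igf2, Igf2r and Grb10 act, 3 fell and none rose, against the same shares of named genes. Igf1, the postnatal counterpart of Igf2, fell by 3.00 (adjusted p = 0.000972) and 3.32 (adjusted p = 0.000793), Igfbp4, an IGF-binding protein, differed by -2.86 (adjusted p = 0.00478) and -2.05 (adjusted p = 0.00799), and Hmga2, a chromatin protein that promotes fetal growth, differed by -1.24 (adjusted p = 0.00525) and -1.22 (adjusted p = 0.00423). The Igfbp4 probe was not above background on 1 TKO_26 array.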

How the data were processed

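RNA of 6 one-colour Agilent arrays was scanned with Agilent Feature Extraction 10.5.1.1, per the file headers. The deposited intensity used here is the processed signal, background-subtracted by that software. A table of the authors' log2 values, of unstated normalization and centring, served as an alternative: each of its columns correlated best with its own array (r 0.995 to 1.000), and its column medians were 6.87 to 6.89. Outlier spots were left out, spots of a probe averaged, and log2 signals reduced by the array's 75th percentile over 19193 probes well above background on all arrays. A probe was tested where some line had it well above background on each of its arrays, with limma 3.58.1 (R 4.3.3) in 3 groups with 3 residual degrees of freedom, and on line averages. Of 55681 probes, 27503 were given a gene symbol through their RefSeq accession and a RefSeq table of GRCm38.p6, which was used for names and gene order. "Brightest" means the highest mean over all arrays.

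The fit was tested on simulated data. The array number limits the precision. Values are given for every member probe called in both lines, the brightest probe of every other tested member, and members whose probes disagree. They are also given for every called gene of the further imprinted list and for some genes of each other list. Members, lists and neighbours were chosen with earlier results of these data known. Alternatives were normexp, quantile scaling, other percentiles, filters and variance models, a replicate block and leaving out each array. A mean signal column was not found, so normexp (offset 50) used the median signal.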

Additional observations from a re-analysis of the deposited data

How the results depend on the processing

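No called difference of a member probe reversed under any alternative run. Of 1518 recomputed differences of single member probes, 1389 kept their side of the threshold, 114 lost a call and 15 gained one. Changes of direction among differences that were not called were not counted. The calls of both bright Plagl1 probes, the brighter Dlk1 probe, both probes of Nnat and of Airn, and Impact held in both lines under every alternative that tested them. Outside left-out arrays, calls in both lines ended for Cdkn1c, Mest, Peg10, Igf2r and the 3 Snrpn probes under some setting; the cause was not tested.

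Member probes called in both lines, 13 lower and 3 higher, became 11 and 1 with normexp background correction, 8 and 1 on the brightest probe of each gene, where fewer probes are tested, and 9 and 0 with no filter. Leaving out 1 array gave 9 to 14 lower and 0 to 2 higher; a line left with 1 array is assumed to vary like the others. On line averages, member probes called lower numbered 10 with normexp, 11 with the authors' values, 11 with a variance trend, and 0 with quantile scaling, the 75th percentile of all probes, signal required on all 6 arrays, no filter, the brightest probes or outlier spots kept; left-out arrays gave 0 to 5. Member probes called higher there numbered 2 with normexp, 2 with the authors' values and 1 with a variance trend. For TKO_29 against TKO_26 no alternative called a member probe.

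Over all probes, those lower and higher in both lines numbered 983 and 370 with normexp, 843 and 570 with signal on all 6 arrays, and 619 and 207 with no filter, against 1674 and 1154; left-out arrays gave 850 to 1651 and 373 to 1364. On line averages they numbered 818 and 156 with normexp, 1115 and 608 with the authors' values, 1104 and 527 with a variance trend, 78 and 5 with the 75th percentile of all probes, 73 and 4 with outlier spots kept, and 0 and 0 with quantile scaling, signal on all 6 arrays, no filter or the brightest probes, against 180 and 31; left-out arrays gave 0 to 413 and 0 to 123. Between the TKO lines 121 probes became 290 with the 75th percentile of all probes, 403 with the authors' values, 266 on the brightest probes, 547 with signal on all 6 arrays, 773 with a variance trend, and 0 with normexp, quantile scaling, no filter or the replicate block; left-out arrays gave 0 to 2020.

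Normexp moved the median of all probes in TKO_29 to -0.29, and quantile scaling to 0.12, from -0.03; among probes called in both lines 27.3% were higher with normexp and 40.8% in the main setting. Arrays with the same replicate number did not deviate the same way in all lines, so the numbers were not taken to pair samples. The correlation was 0.38 between WT and TKO_26, -0.32 between WT and TKO_29 and -0.43 between TKO_26 and TKO_29. Replicate 1 of WT and TKO_26 thus varied with replicate 2 of TKO_29. Each was the array of its line with the lower 75th percentile, which ran from 507 to 2208 over all arrays. The source of this shared spread was not tested. The replicate block gave 12 member probes lower and 2 higher, ending the calls of Cdkn1c and of the brightest Snrpn probe. Line averages hold no replicate number, so no block could be fitted there. Saturated spots (Cdkn1c, Mest, Meg3, Gnas) limit differences at the top of the scale, and signal near background limits Plagl1's dim probes, Zim1 and Rasgrf1.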
